A study of Mus musculus with 32 samples.

Results

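ENL, encoded by Mllt1, reads acetylated histones through its YEATS domain and belongs to protein assemblies that help RNA polymerase II leave promoters. The 10 genes described here encode ENL and partners of these assemblies: the YEATS proteins Mllt1 and Mllt3 (AF9), the scaffolds Aff1, Aff3 and Aff4, the elongation factors Ell and Ell2, the kinase Cdk9 with its cyclin Ccnt1, and the histone methyltransferase Dot1l. They were chosen by name, with earlier results of these data known, and were found by Ensembl identifier among the 55806 identifiers of the deposited count tables. All 10 were in every table and passed the low-count filter in each of the 12 comparisons. Counts per gene do not separate mutant from wild-type Mllt1 transcripts.

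The study asked how ENL tumor mutations act in the 2 main lineages of the embryonic mouse kidney, with 32 libraries of polyadenylated RNA in 11 groups. Whole kidneys were taken at E18.5 (E, embryonic day) from Six2-TGC tg/+; Enl +/+ controls, from Six2-TGC tg/+; Enl T1-fl/+ and from Six2-TGC tg/+; Enl T3-fl/+ embryos, with 2 libraries per genotype. Whole E18.5 kidneys also came from Foxd1 GC/+; Enl +/+ and Foxd1 GC/+; Enl T1-fl/+ embryos, with 3 libraries per genotype. Cells positive for the tdTomato reporter (tdT) were sorted from Six2 kidneys at E14.5 and E18.5, with 3 libraries per genotype (ENL WT, ENL T1) at each stage, and from Foxd1 kidneys at E18.5, with 4 per genotype. The controls thus carry the Cre allele as well as the mutants. Six2-TGC is a transgene that expresses Cre in nephron progenitors, and Foxd1-GC is a knock-in that expresses it in stromal progenitors. All mutants are heterozygous. A whole kidney also holds cells in which Cre was not active, and there the floxed allele still makes wild-type ENL from a cassette with a foreign polyadenylation signal. In bulk RNA, fewer cells of a type and less RNA per cell cannot be told apart.

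As background, RNA polymerase II pauses shortly after it starts a transcript. P-TEFb, the pair of CDK9 and cyclin T1, releases it by phosphorylating the polymerase and the factors that hold it. In the super elongation complex (SEC), an AFF protein is the scaffold that brings together P-TEFb, an ELL protein and either ENL or AF9. ENL and AF9 can instead bind DOT1L, which methylates histone H3 within transcribed genes. Several of these genes, Mllt1, Mllt3, Aff1, Aff4 and Ell among them, are known as fusion partners of MLL in leukemia.

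The mutations lie in exon 4 of Mllt1, within the YEATS domain. The coding sequence around them and the matching stretch of Mllt3 are shown because they mark where the mutant and wild-type transcripts differ and how close the paralogs are there. Both come from GENCODE vM21 transcripts on GRCm38, read 5′ to 3′, on the minus strand and within coding exon 4 of each gene. Capitals mark the 8 codons in which the mutations lie.

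Mllt1, codons 101 to 128, chr17:56905748-56905831: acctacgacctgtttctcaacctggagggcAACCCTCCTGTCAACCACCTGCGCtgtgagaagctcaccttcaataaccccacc
Mllt3, codons 101 to 128, chr4:87873874-87873957: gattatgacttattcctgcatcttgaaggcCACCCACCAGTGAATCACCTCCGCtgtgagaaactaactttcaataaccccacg

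In T1, codons 115 to 117 (AACCACCTG) are repeated. In T3, the first 3 codons in capitals (AACCCTCCT) are replaced by another codon. The stretches of Mllt1 and Mllt3 share 62 of 84 bases, and 18 of the 24 bases in capitals. The Mllt1 transcript is 3636 bases long with 12 exons, and 50.9% of it lies after the stop codon. The floxed cassette holds only the coding sequence of the later exons, so transcripts of an allele that Cre has not recombined lack this part.

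Depth was 67137194 to 157266455 counts per library, except in sorted Foxd1 cells, where it was 2557443 to 3508381. The fewest counts for any of the 10 genes in any library were 16, for Ell2 in ENL WT Foxd1 cells. Levels are CPM, counts relative to the library total and scaled by TMM within each table. Sorted and whole-kidney libraries, and the lineages, were made or sequenced differently, so levels are set side by side across experiments without a test unless one is named. The labelled cells were checked against marker lists. Sorted Six2 cells of ENL WT had summed nephron progenitor markers (6 genes) of 1655 to 1946 CPM at E14.5 and of 447 to 584 at E18.5, and sorted Foxd1 cells of 109 to 161. Stroma markers (6 genes) summed to 5534 to 7407 CPM in sorted Foxd1 cells of ENL WT and to 269 to 545 in both sets of sorted Six2 cells of ENL WT. Each experiment held RNA of further cell types, as their markers show below.

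**Figure D1:**
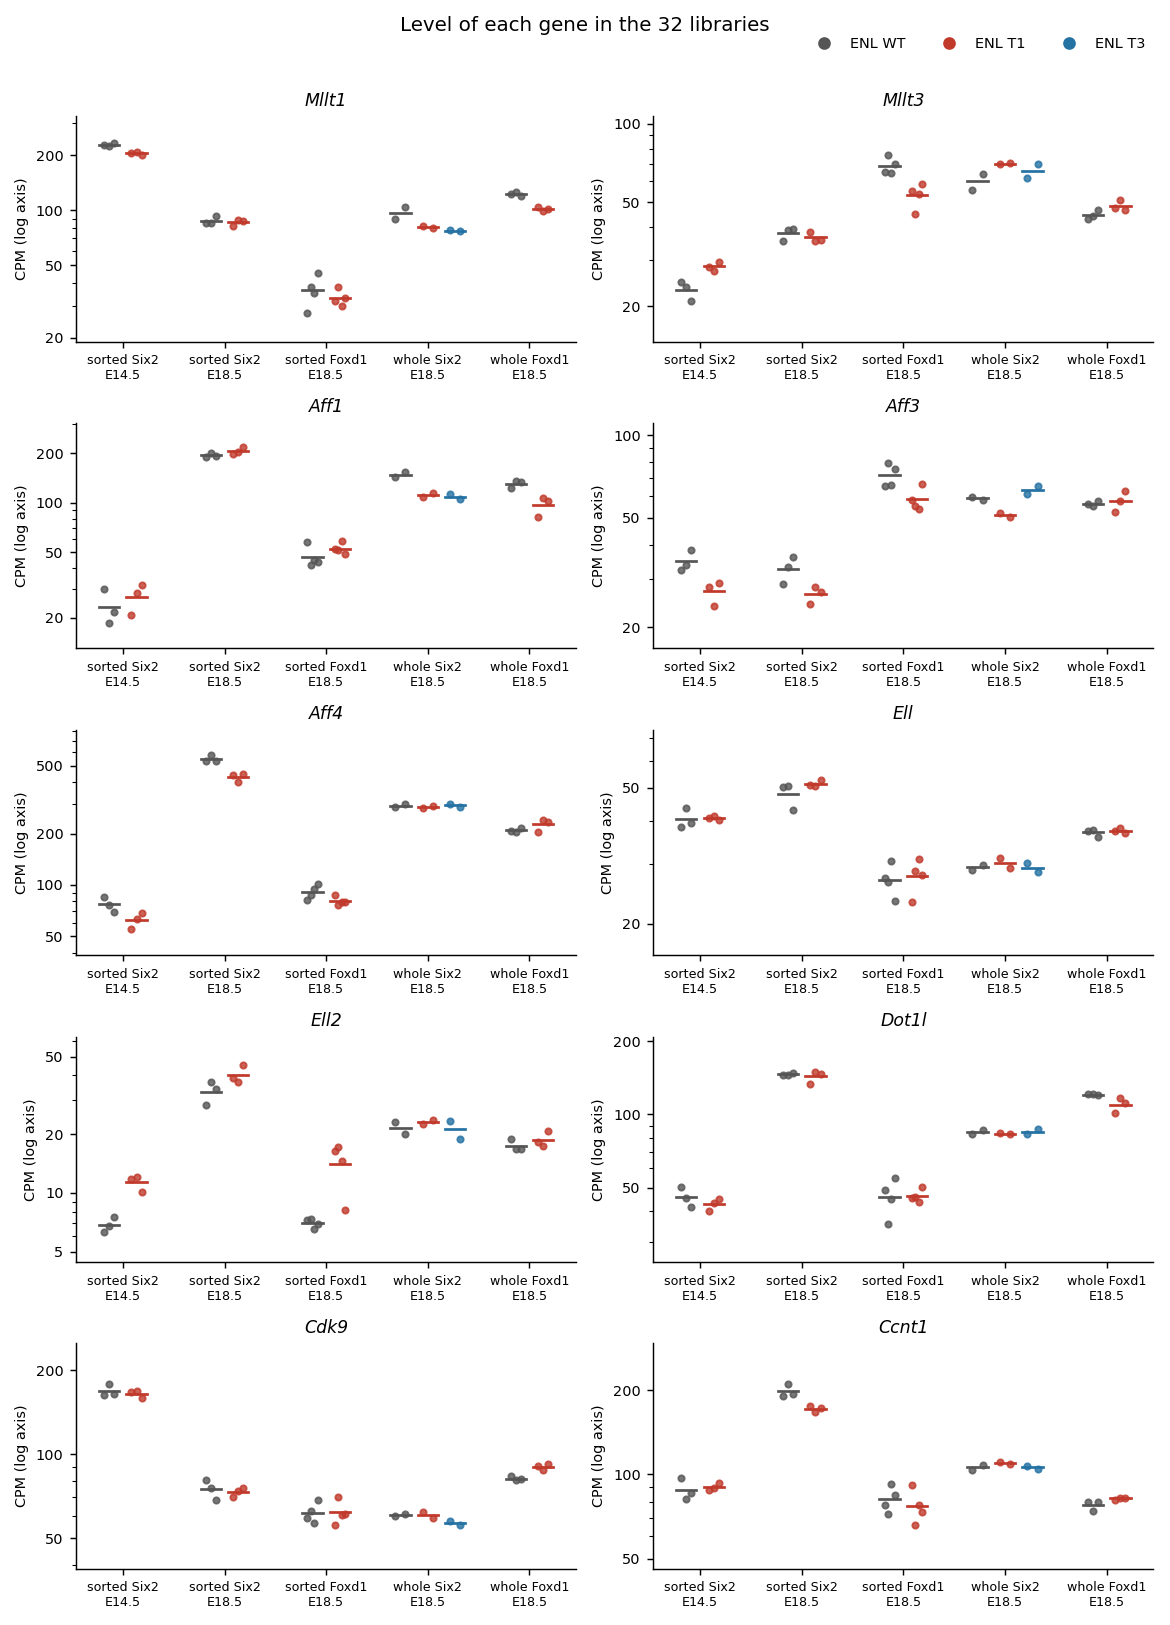
CPM (log axis) of each gene in the 32 libraries, by experiment and genotype; points are libraries and bars are group means. Mllt1 and Cdk9 are highest in sorted Six2 cells at E14.5, whereas Aff1, Aff4, Ell2, Dot1l and Ccnt1 are highest in sorted Six2 cells at E18.5.

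Per length, as CPM per kilobase of exon (CPM/kb), Mllt1 was the most abundant of the 10 genes in E14.5 Six2 cells of ENL WT at 58.3 ± 1.07 (SD, n = 3). Cdk9 followed at 36.4 ± 1.89 (n = 3). Ell2, the lowest, stood at 0.701 ± 0.0643 (n = 3). In E18.5 Six2 cells of ENL WT, Aff4 led at 40.8 ± 2.09 (n = 3), and Mllt1 (22.4 ± 1.19), Ccnt1 (21.7 ± 1.12) and Aff1 (20.5 ± 0.512) followed without the neighbours in that order being separated by their libraries. In Foxd1 cells of ENL WT, Cdk9 led at 13.4 ± 1.13 (n = 4), and the next 4 genes, Aff3, Mllt1, Ccnt1 and Ell, lay between 8.65 and 10.7 with overlapping neighbours. Mllt1 led in whole kidneys of ENL WT, at 24.7 ± 2.74 in Six2 (n = 2) and 31.2 ± 0.734 in Foxd1 (n = 3). When the longest transcript was used in place of all exons, Aff4 stood above Mllt1 in whole Six2 kidneys (28.9 against 26.7), and Mllt3 in Foxd1 cells rose from place 7 to place 3. Ell2 was last of the 10 in ENL WT under both lengths except in E18.5 Six2 cells. Between stages and between lineages, these places are not free of the trend with transcript length that is given below. The longest transcripts of Mllt1 (3636 bases) and Cdk9 (3565) are short, and that of Aff4 (10099) is the longest of the 10. The part of length in the change of places was not tested.

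The genotype comparisons asked which of these genes follow the ENL mutations. By the study's threshold for changed genes (a fold change over 1.5 with an adjusted p below 0.05), 1 of the 10 genes was called in each of 2 comparisons, and it was Ell2 both times. In Six2 cells at E14.5, 1 of 10 was higher and 0 lower, where 4.11% and 2.28% of all 22387 tested genes were. In Foxd1 cells, 1 of 10 was higher and 0 lower, against 3.63% and 2.18% of 12717 genes. In Six2 cells at E18.5, 0 of 10 were called, against 6.14% higher and 5.54% lower of 22685. In whole Six2 kidneys 0 of 10 were called, against 2.88% higher and 4.88% lower of 23931 genes in T1, and 4.34% higher and 5.28% lower in T3. In whole Foxd1 kidneys 0 of 10 were called as well, against 2.65% higher and 7.53% lower of 20145.

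Smaller differences passed an adjusted p of 0.05 with no fold threshold. At E14.5, Mllt3 and Ell2 rose and Mllt1 and Aff3 fell (6.38% of all genes higher, 6.5% lower). In E18.5 Six2 cells, Aff3, Aff4 and Ccnt1 fell (10.7% of all genes lower) and 0 rose (9.58%). In Foxd1 cells, Ell2 rose (5.94% higher) and Mllt3 fell (4.78% lower). In whole Six2 kidneys, Aff1 fell in T1 (9.16% lower) and Aff1 and Mllt1 fell in T3 (10.2% lower), while 0 rose (5.02% and 7.27% higher). In whole Foxd1 kidneys, Cdk9 rose (16.4% higher) and Mllt1 and Aff1 fell (17% lower). With 10 members, these counts were not read as differing from the shares of all genes. The median log2 fold change of the 10 genes lay between -0.038 and 0.057 over the 6 comparisons, beside -0.013 to 0.015 for all tested genes.

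**Figure D2:**
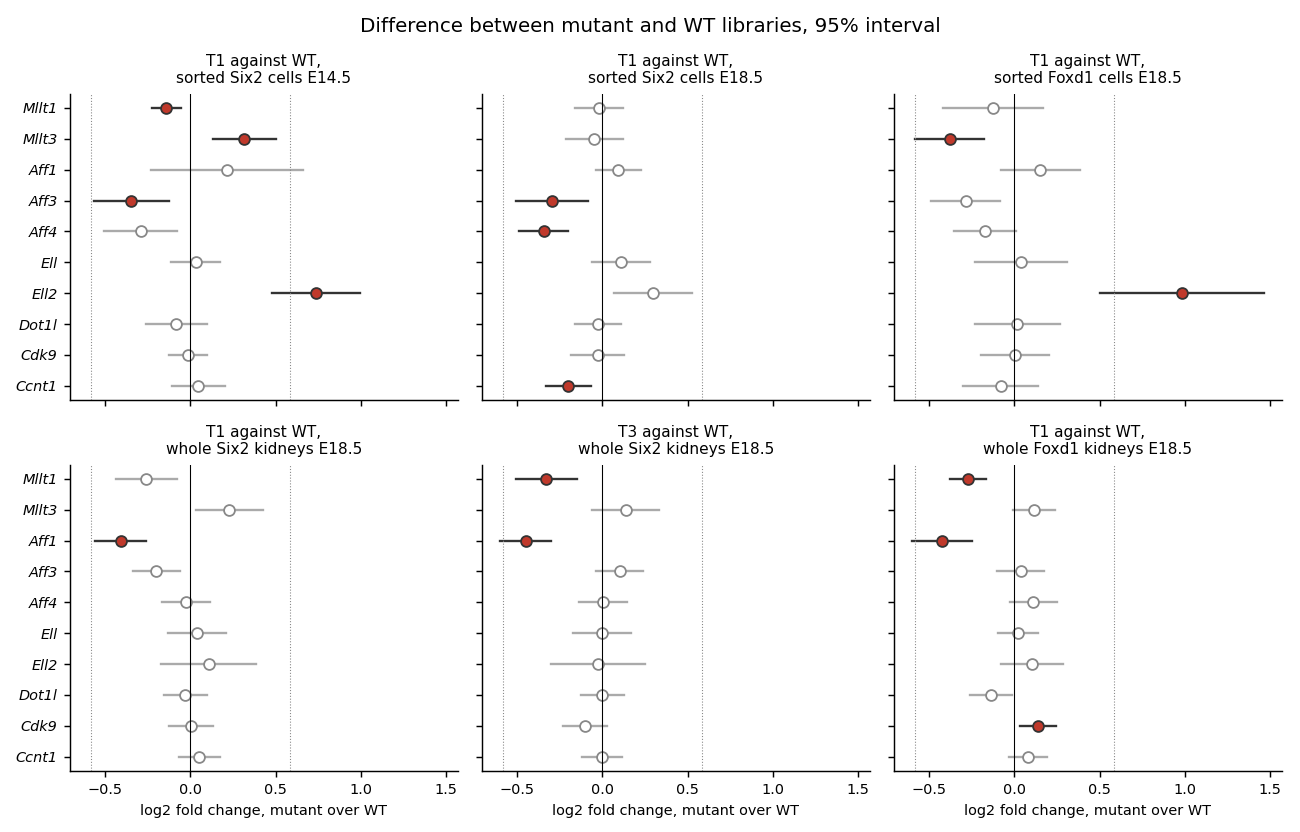
Log2 fold change of mutant over ENL WT with its 95% interval for the 10 genes in 6 comparisons; filled points passed an adjusted p of 0.05, and dotted lines mark a fold change of 1.5. Only Ell2 in E14.5 Six2 cells and in sorted Foxd1 cells passed both thresholds, and Aff1 was lower in all 3 whole-kidney panels.

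Mllt1, the targeted gene, was read first. In E14.5 Six2 cells its level was 227, 225 and 233 CPM in ENL WT and 207, 208 and 200 CPM in ENL T1. All 3 mutant libraries lay below all 3 controls, a log2 fold change of -0.14 ± 0.038 (SE; adjusted p = 0.0436, quasi-likelihood test of edgeR, adjusted by Benjamini-Hochberg, as for each adjusted p here). The call was lost when any of the 6 libraries was left out (adjusted p = 0.0706 to 0.148), and also by the exact test of edgeR (adjusted p = 0.076), by library size alone (adjusted p = 0.131), without the low-count filter (adjusted p = 0.0798), with an offset for transcript length (adjusted p = 0.106) and in a fit of all 12 sorted Six2 libraries (adjusted p = 0.067). In E18.5 Six2 cells the level was 85.3, 84.9 and 93.2 CPM in ENL WT and 82.1, 88.9 and 87.5 in ENL T1, which overlap (-0.02 ± 0.065, adjusted p = 0.881). In Foxd1 cells it was 27.2, 38.0, 35.4 and 45.2 CPM against 31.7, 37.9, 29.8 and 32.9, which overlap too (-0.13 ± 0.14, adjusted p = 0.643), with a 95% interval of -0.42 to 0.17.

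Mllt1 was lower in mutant whole kidneys than in their controls. In whole Foxd1 kidneys it was 122, 125 and 119 CPM in ENL WT and 104, 98.5 and 101 in Foxd1-ENL T1, so that the genotypes did not overlap and Mllt1 fell by 0.27 on the log2 scale (SE 0.0495, adjusted p = 0.00102). This call held under all 14 alternatives. In whole Six2 kidneys the controls had 89.3 and 105 CPM, the T1 libraries 82.3 and 79.7 and the T3 libraries 77.7 and 76.5. Both mutants lay below both controls, by -0.26 ± 0.077 in T1 (adjusted p = 0.0664) and by -0.33 ± 0.077 in T3 (adjusted p = 0.0238). The T1 difference was -0.36 without ENL WT replicate 1 (adjusted p = 0.00367) and -0.12 without ENL WT replicate 2 (adjusted p = 0.198), and it passed by the exact test of edgeR (adjusted p = 0.0475) and without the low-count filter (-0.25, adjusted p = 0.00788). The T3 call was lost without either T3 library or either T1 library, which share the estimate of spread (adjusted p = 0.0611 to 0.137), and with scaling by library size alone (adjusted p = 0.056) or with T3 and ENL WT alone in the fit (adjusted p = 0.0591). Without ENL WT replicate 2 the T3 difference was -0.19 and still passed. Sorted cells were selected by a reporter that Cre switches on. By the paper's sorting, such cells were a minority in E18.5 kidneys of both lineages. The share of cells whose floxed allele Cre had not recombined, which make a transcript without the native end, was not measured in any library. Its part in these differences was not tested.

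Mllt3, the AF9 gene and paralog of Mllt1, was higher in ENL T1 in Six2 cells at E14.5 and lower in Foxd1 cells at E18.5, samples that differ in both lineage and stage. At E14.5 it was 24.6, 23.6 and 20.9 CPM in ENL WT and 28.2, 27.4 and 29.5 in ENL T1, with no overlap. This was a rise of 0.32 ± 0.080 on the log2 scale (adjusted p = 0.0363), lost without any ENL T1 library or without ENL WT replicate 2 or 3 (adjusted p = 0.0727 to 0.122). In Foxd1 cells it was 65.3, 76.0, 64.7 and 70.0 CPM in ENL WT and 55.1, 45.0, 53.8 and 58.7 in ENL T1. Here all 4 mutant libraries lay below all 4 controls and Mllt3 fell by 0.38 on the log2 scale (SE 0.097, adjusted p = 0.0153), a call lost without ENL WT replicate 2 or ENL T1 replicate 2 (adjusted p = 0.0618 and 0.0785). In E18.5 Six2 cells, the stage-matched set, the genotypes overlapped (35.5, 39.1 and 39.6 CPM against 38.4, 35.6 and 35.9, -0.05, adjusted p = 0.734). In whole Six2 kidneys T1 lay above ENL WT, at 69.7 and 70.8 against 55.9 and 64.1 CPM, without passing the test (0.23 ± 0.085, adjusted p = 0.133). It was 0.35 without ENL WT replicate 2 (adjusted p = 0.0212) and 0.14 without ENL WT replicate 1 (adjusted p = 0.328), and it passed without the low-count filter (0.24, adjusted p = 0.0232). Over the 6 libraries left out in turn, its adjusted p ran from 0.0212 to 0.434.

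The ratio of the paralogs within a library, in CPM/kb, is free of library scaling. It is not free of the trend with transcript length between stages and between lineages that is given below. In mutants it is also not free of transcripts from a floxed allele that Cre has not recombined, which lack the native end. Their part in the ratios of mutant whole kidneys was not tested. Mllt1 over Mllt3 was 28.3, 29.2 and 34.2 in E14.5 Six2 cells of ENL WT and 20.8 to 23.2 in ENL T1. It was 6.65 to 7.35 against 6.55 to 7.65 at E18.5, where the genotypes overlap. In Foxd1 cells it was 1.28 to 1.98 against 1.70 to 2.58. In whole kidneys the mutant libraries all lay below their controls, at 4.90 and 4.99 in ENL WT, 3.45 and 3.62 in T1, 3.35 and 3.84 in T3 of Six2, and at 7.84 to 8.66 against 5.93 to 6.68 in Foxd1. The group means for ENL WT thus ran from 1.62 in Foxd1 cells to 30.6 in E14.5 Six2 cells. With the longest transcript as the length they ran from 0.880 to 16.6. Mllt1 and Mllt3 differ in transcript length (3636 and 6069 bases), and its part in these ranges was not tested.

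**Figure D3:**
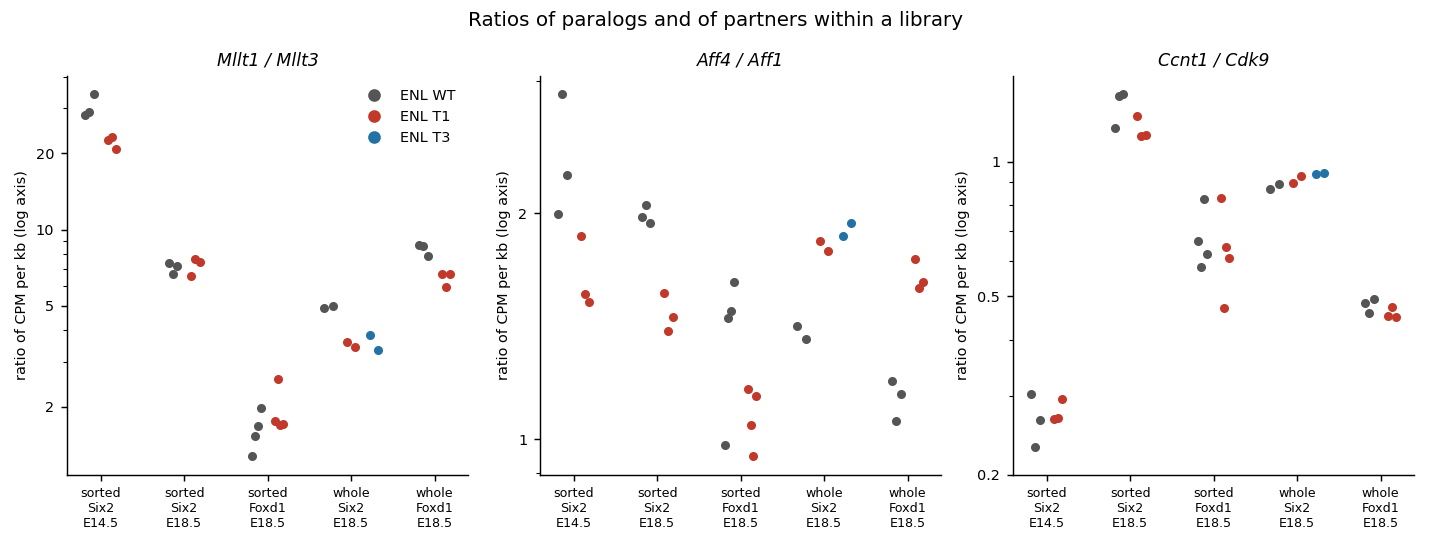
Ratios of CPM per kilobase (log axis) of Mllt1 to Mllt3, Aff4 to Aff1 and Ccnt1 to Cdk9 in each library; points are libraries, coloured by genotype. Aff4 over Aff1 is lower in ENL T1 in sorted Six2 cells and higher in the mutants in whole kidneys of both lineages.

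The scaffold Aff1 was lower in mutant whole kidneys of both lineages. In whole Six2 kidneys it was 143 and 154 CPM in ENL WT, 109 and 114 in T1, and 112 and 105 in T3. Both mutants lay below the controls without overlap, a fall of 0.41 in T1 (SE 0.065, adjusted p = 0.00524) and of 0.45 in T3 (SE 0.065, adjusted p = 0.00288) on the log2 scale. The T1 call was lost without T1 replicate 1 (-0.35, adjusted p = 0.1002) or replicate 2 (-0.44, adjusted p = 0.0503), which leaves 1 library in that arm. In whole Foxd1 kidneys it was 123, 135 and 133 CPM in ENL WT and 82.5, 107 and 102 in T1, a fall of 0.42 (SE 0.081, adjusted p = 0.0014) that held under all 14 alternatives.

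In sorted cells the genotypes overlapped for Aff1 and the estimates were above 0. They were 0.21 ± 0.20 in E14.5 Six2 cells (adjusted p = 0.560), 0.09 ± 0.061 in E18.5 Six2 cells (adjusted p = 0.352) and 0.15 ± 0.11 in Foxd1 cells (adjusted p = 0.446). By library size alone, the value in E18.5 Six2 cells passed the test (0.19, adjusted p = 0.0351). The difference between whole and sorted samples itself was not tested, since their tables were counted and scaled separately. Markers of proximal tubule fell in the same whole kidneys. Of 6 such genes, 6 were called lower in T1 and 6 in T3, and their sum went from 2292 to 2619 CPM in ENL WT to 347 to 433 in T1 and 345 to 384 in T3. In whole Foxd1 kidneys 5 of 6 were called lower, from 2530 to 2652 to between 1134 and 1482 CPM. None of the 6 was at or under 3 counts in all libraries of any whole-kidney group. Podocyte markers (6 of 6 in each mutant of whole Six2 kidneys) and nephron progenitor markers (5 of 6 in each) fell too, as did ureteric tree markers in T3 (3 of 5), and macrophage markers rose (5 of 6 in each). Nephron progenitor markers summed to 143 to 167 CPM in ENL WT, 86.0 to 88.4 in T1 and 72.1 to 88.2 in T3. The part of these cells in the differences of Aff1 and Mllt1 was not tested.

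Aff3, a scaffold close to Aff1, was lower in ENL T1 in each set of sorted cells. At E14.5 it was 32.4, 33.7 and 38.2 CPM in ENL WT and 28.2, 24.0 and 29.0 in T1 (-0.35 ± 0.096, adjusted p = 0.049). At E18.5 it was 28.7, 33.3 and 36.0 against 24.4, 28.1 and 26.9 (-0.30 ± 0.098, adjusted p = 0.0498). In both the genotypes did not overlap. Both calls sat at the threshold, and that at E14.5 was lost without any of the 6 libraries (adjusted p = 0.0582 to 0.137), that at E18.5 without any but ENL WT replicate 1 (adjusted p = 0.0698 to 0.179). By library size alone both were lost (adjusted p = 0.0843 and 0.167), as they were with the length offset (adjusted p = 0.19 and 0.0687). In Foxd1 cells it was 65.6, 79.0, 65.9 and 75.1 CPM against 58.1, 55.4, 54.1 and 66.5, a difference of the same size (-0.29 ± 0.095) with 1 mutant library inside the range of the controls and an adjusted p of 0.0646. With each of the 8 libraries left out in turn it ran from -0.23 to -0.35 (adjusted p = 0.0412 to 0.203), and it passed without ENL WT replicate 1 or ENL T1 replicate 4 and without the low-count filter (adjusted p = 0.0405).

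In whole kidneys Aff3 did not pass the test against ENL WT. It was 59.5 and 58.2 CPM in ENL WT, 52.1 and 50.4 in T1, and 61.0 and 65.4 in T3 of Six2, so that T1 lay below and T3 above the controls. The comparison of T3 with T1, which asked whether the 2 mutations act alike, gave a difference of 0.30 ± 0.059 for Aff3 (adjusted p = 0.417 by edgeR). Of the 10 genes, 0 were called in that comparison, where 1 of 23931 genes was higher in T3 (0.00418%) and 0 were lower (0%). Aff3 was the 1 gene of the 10 with an unadjusted p under 0.05 by edgeR, and DESeq2 gave it an adjusted p of 0.0161 without passing the fold threshold. Without the low-count filter, edgeR gave Aff3 0.29 (adjusted p = 0.0235), also under the fold threshold. Both T1 libraries came from male kidneys and both T3 libraries from female kidneys, as their Xist and Ddx3y counts show, so sex and allele cannot be told apart there. Among the 2 ENL WT libraries, Xist was high in 1 and Ddx3y in 1, so neither mutant was matched to ENL WT in sex. For the other 9 genes the difference between T3 and T1 lay between -0.13 and 0.03.

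Aff4, the scaffold that is the main one in many cell types, fell in E18.5 Six2 cells. It was 534, 581 and 531 CPM in ENL WT and 440, 403 and 448 in T1, without overlap, a fall of 0.34 on the log2 scale (SE 0.066, adjusted p = 0.00205) that held under all 15 alternatives. At E14.5 it was 84.8, 76.4 and 69.6 CPM against 55.1, 62.7 and 68.6, also without overlap (-0.29 ± 0.094, adjusted p = 0.0823). With each library left out in turn the difference ran from -0.22 to -0.37 (adjusted p = 0.0455 to 0.216, passing without ENL WT replicate 3). It also passed by DESeq2 (adjusted p = 0.0176), without the low-count filter (adjusted p = 0.0403) and in a fit of all 12 sorted Six2 libraries (adjusted p = 0.0293). In Foxd1 cells the genotypes overlapped (81.0 to 101 CPM against 76.1 to 87.2, -0.17 ± 0.086, adjusted p = 0.243). In whole kidneys Aff4 differed by -0.03 to 0.11 with overlapping libraries. The value in whole Foxd1 kidneys was 0.18 without ENL T1 replicate 1 (adjusted p = 0.0117) and 0.07 without ENL T1 replicate 2 (adjusted p = 0.513).

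As a consequence of these levels, Aff4 over Aff1 in CPM/kb was 1.94 to 2.05 in E18.5 Six2 cells of ENL WT and 1.39 to 1.57 in ENL T1. In whole kidneys it went the other way, from 1.36 and 1.41 to 1.78 and 1.83 in T1 and 1.86 and 1.94 in T3 of Six2, and from 1.06 to 1.19 to between 1.59 and 1.74 in Foxd1. In E18.5 Six2 cells, markers of several cell types moved with genotype. Podocyte markers summed to 2822 to 3308 CPM in ENL WT and 189 to 232 in T1 (6 of 6 called lower), proximal tubule markers to 1369 to 1841 and 447 to 490 (6 of 6 lower), and nephron progenitor markers to 447 to 584 and 188 to 243 (5 of 6 lower). Stroma markers summed to 269 to 493 and 755 to 877 CPM (4 of 6 higher, 1 lower), red cell markers to 104 to 210 and 1550 to 2274 (5 of 5 higher), and macrophage markers to 31.8 to 35.2 and 62.6 to 77.8 (4 of 6 higher). None of these markers was at or under 3 counts in all libraries of either genotype. Their part in the differences of Aff3, Aff4 and Ccnt1 was not tested.

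Ell2, an elongation factor that also favours secretory messenger RNA processing in plasma cells, was the member with the clearest rise. At E14.5 it was 6.33, 6.75 and 7.57 CPM in ENL WT and 11.8, 12.1 and 10.1 in ENL T1, which did not overlap. This was 1.67-fold higher (log2 0.74 ± 0.11, adjusted p = 0.00416). In Foxd1 cells it was 7.29, 7.37, 6.51 and 6.93 CPM in ENL WT and 16.4, 17.1, 14.53 and 8.15 in T1, which was 1.97-fold higher (log2 0.98 ± 0.23, adjusted p = 0.00839). These rest on 16 to 26 counts per library in ENL WT and 25 to 51 in T1. Replicate 4 of T1 lay just above the controls, and without it the log2 fold change was the highest of the alternatives at 1.18.

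In E18.5 Six2 cells, where Ell2 was several times more abundant, it was 28.2, 36.9 and 33.9 CPM in ENL WT and 38.7, 37.1 and 45.2 in T1. All mutant libraries lay above the controls, the nearest by a small margin (0.30 ± 0.11, adjusted p = 0.0687), and the difference was 0.38 without ENL WT replicate 2 (adjusted p = 0.0418), 0.20 without ENL WT replicate 1 (adjusted p = 0.182) and 0.20 without ENL T1 replicate 3 (adjusted p = 0.32). It passed by DESeq2 (adjusted p = 0.0472), by library size alone (0.39, adjusted p = 0.0119) and without the low-count filter (adjusted p = 0.0108). In whole kidneys the genotypes overlapped, with differences of 0.11 in T1 and -0.03 in T3 of Six2 and of 0.10 in Foxd1. At E14.5 and in Foxd1 cells, an adjusted p under 0.05 held under all 15 and all 16 alternatives judged on it. With the fold threshold raised to 2, neither call remained. Marker lists moved with genotype in these samples as well, and at E14.5 the nephron progenitor list is that of the labelled cells themselves. The paper reports that nephron progenitor genes fell, and that Meis1, which is in the stroma list here, rose within sorted Six2-ENL T1 cells. At E14.5, stroma markers summed to 418 to 545 CPM in ENL WT and 833 to 1676 in T1 (5 of 6 called higher, 1 lower) and nephron progenitor markers to 1655 to 1946 and 846 to 1045 (5 of 6 lower). In Foxd1 cells, macrophage markers summed to 89.0 to 216 and 221 to 306 CPM (5 of 6 higher) and proximal tubule markers to 105 to 296 and 49.4 to 90.6 (4 of 5 tested lower). Fbp1 was at or under 3 counts in each ENL WT library at E14.5 and Slc5a2 in each T1 library of Foxd1 cells, both proximal tubule markers. Their part in the differences of Ell2, Mllt3, Mllt1 and Aff3 was not tested.

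Ell, the paralog of Ell2, did not pass the test in any genotype comparison. Its differences ran from -0.0023 to 0.11, and its genotypes overlapped in each. The widest 95% interval was -0.23 to 0.31, in Foxd1 cells. Levels were 43.0 to 50.7 CPM in E18.5 Six2 cells of ENL WT and 50.6 to 52.8 in ENL T1.

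Dot1l, the histone H3 methyltransferase that ENL and AF9 can recruit, did not pass the test either, though in whole Foxd1 kidneys the call turned on the setting. It was 121, 121 and 120 CPM in whole Foxd1 kidneys of ENL WT and 101, 117 and 112 in T1, without overlap (-0.14 ± 0.057, adjusted p = 0.0831). It was -0.18 without T1 replicate 2 (adjusted p = 0.0483) and -0.08 without T1 replicate 1 (adjusted p = 0.244), and it passed with only genes over 1 CPM (-0.16, adjusted p = 0.0415) and with the length offset (-0.21, adjusted p = 0.00452). In the other 5 comparisons with ENL WT the differences lay between -0.08 and 0.02.

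The P-TEFb genes changed little. Cdk9, the kinase, was 83.2, 80.9 and 81.2 CPM in whole Foxd1 kidneys of ENL WT and 90.4, 87.7 and 92.0 in T1, a rise of 0.14 ± 0.049 (adjusted p = 0.0435). The call was lost without any 1 library except T1 replicate 1 (adjusted p = 0.0535 to 0.148), and without the low-count filter, with only genes over 1 CPM or with the length offset (adjusted p = 0.0705, 0.0712 and 0.105). In the other comparisons with ENL WT Cdk9 differed by -0.10 to 0.0053. Ccnt1, its cyclin, was 191, 210 and 194 CPM in E18.5 Six2 cells of ENL WT and 175, 168 and 172 in T1, without overlap, and fell by 0.20 on the log2 scale (SE 0.061, adjusted p = 0.0348). That call was lost without any ENL T1 library or without ENL WT replicate 2 (adjusted p = 0.0651 to 0.152), by library size alone (-0.10, adjusted p = 0.245) and with the length offset (-0.16, adjusted p = 0.0741).

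The comparison of E18.5 with E14.5 followed normal development in sorted Six2 cells. Of the 10 genes in ENL WT, 5 were higher and 2 lower by a fold change over 2 with an adjusted p below 0.01, where 24.8% of all 25222 genes were higher and 20.6% lower. In ENL T1, 4 were higher and 2 lower (24.4% and 19.8%). Mllt1 went from 225 to 233 CPM at E14.5 to 84.9 to 93.2 at E18.5 in ENL WT, a fall of 1.38 on the log2 scale (95% interval -1.49 to -1.26), and fell by 1.25 in ENL T1. Cdk9 went from 162 to 178 CPM to 68.7 to 80.9, a fall of 1.16 in ENL WT and 1.17 in ENL T1.

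The scaffolds Aff1 and Aff4 rose most. Aff1 went from 18.6 to 29.9 CPM to 190 to 199 in ENL WT (log2 3.05, interval 2.69 to 3.40) and Aff4 from 69.6 to 84.8 to 531 to 581 (2.83, interval 2.64 to 3.03). Ell2 rose by 2.26, Dot1l by 1.67 and Ccnt1 by 1.17 in ENL WT. In ENL T1 the same changes were 2.94, 2.79, 1.83, 1.74 and 0.93, the last just under the fold threshold. Mllt3 differed by 0.73 in ENL WT and 0.37 in ENL T1, Ell by 0.25 and 0.33, and Aff3 by -0.09 and -0.03, none over the fold threshold. In each of these genes but Aff3 and, in ENL WT, Ell, the libraries of the stages did not overlap. Ccnt1 over Cdk9 in CPM/kb went from 0.231 to 0.302 at E14.5 to 1.19 to 1.42 at E18.5 in ENL WT.

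These differences followed transcript length across all genes. Among protein-coding genes over 10 CPM, the median change in ENL WT was -1.05 for transcripts up to 2000 bases (1864 genes), -0.03 for those of 4000 to 6000 (2731 genes) and 2.00 for those over 10000 (309 genes). Aff4 (10099 bases), Ccnt1 (7397), Dot1l (6808), Mllt3 (6069) and Cdk9 (3565) lay within the interquartile range of genes of their length. Aff1 (8323 bases, against an upper quartile of 2.15) and Ell2 (5126, against 0.87) lay above it, and Ell (3072) by a small margin. Mllt1 (3636, against a lower quartile of -1.20) lay below it, as did Aff3 (6010) by a small margin. Markers of maturing cells rose between the stages as well, with 6 of 6 podocyte and 6 of 6 proximal tubule genes called higher in ENL WT and 5 of 6 nephron progenitor genes lower, and their part in these differences was not tested. The stages also differed in how the tissue was dissociated, by trypsin for minutes at E14.5 and by collagenase for longer at E18.5, so stage, dissociation and this trend cannot be told apart. Xist was high in 0 of 3 ENL WT libraries at E14.5 and in 2 of 3 at E18.5, and Ddx3y in 1 at each stage. The stages were thus not shown to be matched in sex.

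**Figure D4:**
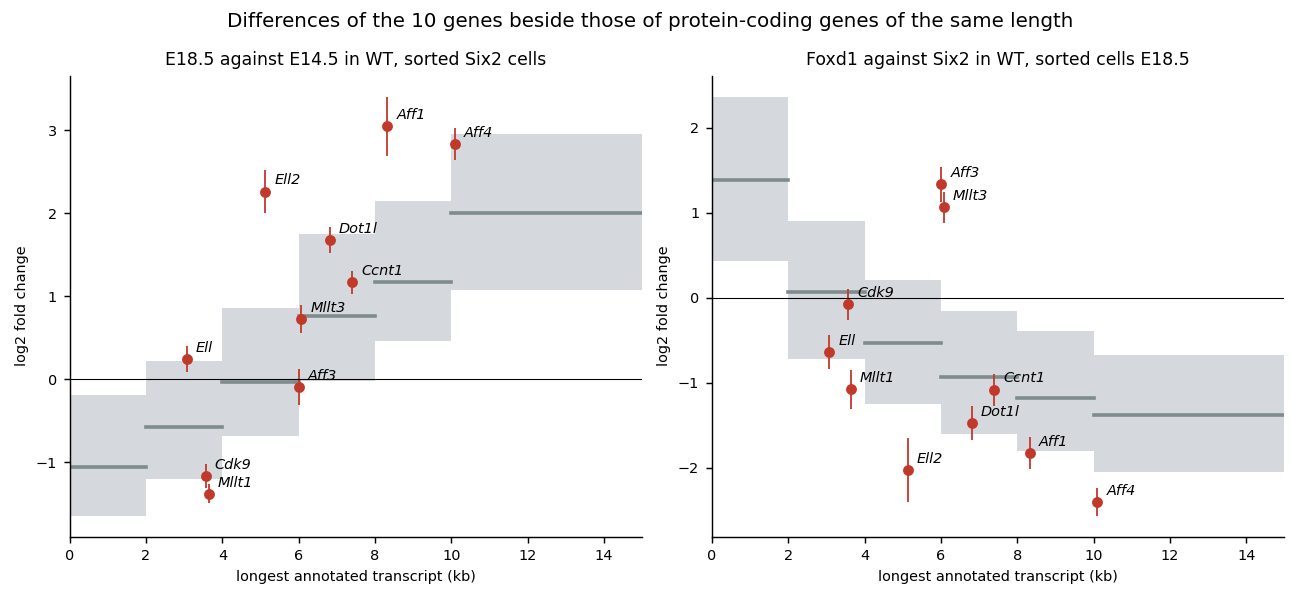
Log2 fold change of the 10 genes with 95% intervals against the length of their longest annotated transcript, for stage (left) and lineage (right) in ENL WT; grey bars are the median and the interquartile range of protein-coding genes over 10 CPM in each length range, the last of which is open above 10 kb. Aff1, Ell2 and Ell lie above the grey range for stage and Mllt1 and Aff3 below it, and for lineage Aff3 and Mllt3 lie above it and Ell2, Mllt1, Aff4 and Aff1 below it.

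A fit with an offset for transcript length, chosen after the trend had been seen, lowered most of these values. Under it, 4 of the 10 genes were higher in ENL WT and 0 lower, and the split of all called genes went from 6267 higher and 5197 lower to 7405 and 2979. Ell2 kept 2.20, Aff1 had 1.98, Aff4 1.37 and Dot1l 1.02. Ccnt1 had 0.34, Mllt1 -0.92 and Cdk9 -0.69, each under the fold threshold. Aff3 had -0.49 (adjusted p = 0.000981), and Ell rose to 0.84. In ENL T1 the change of Mllt3 turned from 0.37 to -0.14.

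**Figure D5:**
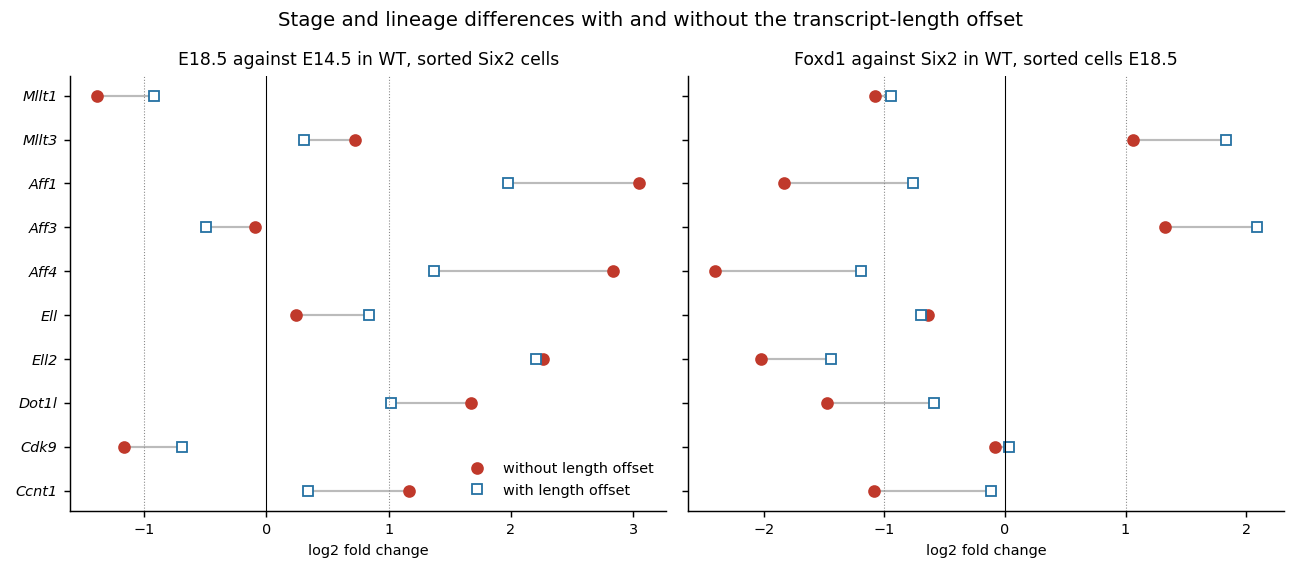
Log2 fold change of the 10 genes for stage (left) and lineage (right) in ENL WT, without (circles) and with (squares) an offset for transcript length; dotted lines mark a fold change of 2. Ell2 keeps its stage difference, Aff4 and Ccnt1 move toward 0 in both panels, and Aff3 and Mllt3 move further up for lineage.

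The comparison of sorted Foxd1 with sorted Six2 cells of ENL WT at E18.5 asked how the lineages differ. At the same thresholds as for stage, 2 of the 10 genes were higher in Foxd1 cells and 6 lower, where 27.2% of 14869 genes were higher and 28.2% lower. Mllt3 (64.7 to 76.0 CPM against 35.5 to 39.6, log2 1.06) and Aff3 (65.6 to 79.0 against 28.7 to 36.0, log2 1.33) were higher in Foxd1 cells. Aff4 (-2.40), Ell2 (-2.02), Aff1 (-1.83), Dot1l (-1.48), Ccnt1 (-1.08) and Mllt1 (-1.08) were lower. Ell (-0.64) did not reach the fold threshold, and Cdk9 differed by -0.08 (adjusted p = 0.390), although its libraries did not overlap in CPM (56.5 to 68.5 in Foxd1 cells against 68.7 to 80.9, each scaled within its own table). Without the low-count filter Cdk9 was lower in Foxd1 cells (-0.42, adjusted p = 2.72e-05), under the fold threshold.

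Length ran through this comparison too, in the opposite sense. The median difference was 1.39 for transcripts up to 2000 bases (1862 genes) and -1.38 for those over 10000 (309 genes). Against genes of their length, Aff3 and Mllt3 lay above the interquartile range. Ell2 (lower quartile -1.25), Mllt1 (-0.72), Aff4 (-2.04) and, by a small margin, Aff1 (-1.81) lay below it, and Ell, Dot1l, Ccnt1 and Cdk9 within it. With the length offset, 2 genes were higher and 2 lower. Aff3 had 2.09 and Mllt3 1.83, Ell2 -1.44 and Aff4 -1.19, while Mllt1 (-0.94), Aff1 (-0.76), Dot1l (-0.59) and Ccnt1 (-0.12) fell under the threshold. Without the low-count filter, Mllt3 and Aff3 were no longer called higher, and all called genes split into 4301 higher and 6751 lower in place of 4051 and 4190. The lineages were sequenced with different read lengths and at very different depths, so lineage and run cannot be told apart. They were not matched in sex either. Ddx3y was high in 4 of 4 Foxd1 libraries of ENL WT and Xist in 0, while in the 3 Six2 libraries Xist was high in 2 and Ddx3y in 1.

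The interaction terms asked whether the effect of T1 differs between stages or between lineages. For stage, 0 of 10 genes were called, against 3.94% of all genes with a higher and 4.22% with a lower effect at E18.5. For lineage, 0 of 10 were called, against 8.25% and 7.63%. At an unadjusted p under 0.05 by edgeR these were 3 genes (Mllt3, Ell2 and Ccnt1) and 2 genes (Mllt3 and Ell2), and DESeq2 called 1 gene, Mllt3, in each. Mllt3 came nearest. Its effect was lower by 0.36 at E18.5 than at E14.5 (interval -0.59 to -0.12, adjusted p = 0.0615) and lower by 0.35 in Foxd1 cells than in Six2 cells at E18.5 (interval -0.60 to -0.10, adjusted p = 0.0552). With each library left out in turn, the stage term of Mllt3 ran from -0.29 to -0.45 (adjusted p = 0.0243 to 0.141, passing without 3 of 12) and its lineage term from -0.29 to -0.42 (adjusted p = 0.0312 to 0.124, passing without 4 of 14). Ell2 had -0.43 for stage (adjusted p = 0.136) and 0.67 for lineage (adjusted p = 0.0861), neither past the threshold. Its stage term passed without E18.5 ENL WT replicate 1 and ran from -0.38 to -0.58 over the libraries left out (adjusted p = 0.0419 to 0.243). Its lineage term passed without that library or without Foxd1 ENL T1 replicate 4 and ran from 0.53 to 0.85 (adjusted p = 0.0103 to 0.221). The stage term of Ccnt1, -0.24 (adjusted p = 0.142), passed without E14.5 ENL WT replicate 1 and ran from -0.18 to -0.32 (adjusted p = 0.0336 to 0.298).

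The other genes of the elongation machinery, 45 in 8 lists, give the setting. Of all genes in whole Six2 kidneys, 2.88% were called higher and 4.88% lower in T1, and 4.34% and 5.28% in T3. Of the 45, 0 were called higher and 1 lower in each mutant. That gene was Eaf2, a small partner of the ELL proteins, at 5.24 and 6.59 CPM in ENL WT, 3.62 and 4.09 in T1 (-0.62, adjusted p = 0.0283) and 3.32 and 3.36 in T3 (-0.82, adjusted p = 0.00775). Eaf2 was lower in whole Foxd1 kidneys of T1 too (-0.39, adjusted p = 0.032, under the fold threshold). In sorted cells 0 of the 45 were called (43 of them tested in Foxd1 cells). With no fold threshold, 0 of 45 were higher and 1 lower in Six2 cells at E14.5 (6.38% and 6.5% of all genes). At E18.5, 2 were higher and 2 lower (9.58% and 10.7%), and in sorted Foxd1 cells 0 passed (5.94% and 4.78%). In whole Six2 kidneys 1 was higher and 2 lower in T1 (5.02% and 9.16%), and 2 and 2 in T3 (7.27% and 10.2%). These counts were not read as differing from the shares of all genes. Cdc73 of the PAF1 complex, which travels with the polymerase, fell in Six2 cells at both stages (-0.25 at E14.5, adjusted p = 0.0246, and -0.30 at E18.5, adjusted p = 0.0176). Ice1, the scaffold of the little elongation complex that serves small nuclear RNA genes, rose at E18.5 (0.22, adjusted p = 0.0264). Its effect differed between stages (0.37, adjusted p = 0.0354) and between lineages (-0.60, adjusted p = 0.00386). Brd2, a bromodomain protein, fell at E18.5 (-0.20, adjusted p = 0.0331), and Nelfcd of the pausing factor NELF rose (0.29, adjusted p = 0.017). The effect on Yeats2 differed between stages (0.39, adjusted p = 0.0227) and that on Brd3 between lineages (-0.34, adjusted p = 0.0237). For stage, 2 of 45 had a higher and 0 a lower effect at E18.5 (3.94% and 4.22% of all genes). For lineage, 0 of 44 tested had a higher and 2 a lower effect in Foxd1 cells (8.25% and 7.63%).

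In whole Foxd1 kidneys more of the list genes moved by a little. With no fold threshold, 19 of 45 were higher and 3 lower, beside 16.4% and 17% of all genes, and 0 passed the fold threshold. Pausing and elongation factors had 7 of 9 higher (list median 0.23), the PAF1 complex 4 of 6 (0.20), P-TEFb regulators 3 of 8 (0.11) and transcriptional kinases with their partners 3 of 9 (0.074), where the median of all genes was -0.0034. For protein-coding genes over 10 CPM, the medians by transcript length, shortest first, were -0.015, 0.040, 0.059, 0.081, 0.095 and 0.034. The median of the transcriptional kinases lay within that range and that of the P-TEFb regulators just above it. The FACT subunits Supt16 (0.48, adjusted p = 1.09e-05, 21.0% of its exon length shared with other genes) and Ssrp1 (0.46, adjusted p = 3.56e-05) had the highest values. Ctr9 (0.36, adjusted p = 0.00011) and Ddx21 (0.35, adjusted p = 0.000184) followed. In these kidneys summed proliferation markers (1 of 6 called higher) were 719 to 778 CPM in ENL WT and 924 to 1044 in T1, and nephron progenitor markers (4 of 6 called higher) 278 to 295 and 421 to 528. Their part was not tested.

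Between stages in ENL WT, 12 of the 45 were higher and 9 lower at E18.5 by the thresholds for development, beside 24.8% and 20.6% of all genes, so these counts lay near the shares of all genes. Hexim1, which with 7SK RNA holds P-TEFb inactive, rose by 4.55, and Mllt6 of the DOT1L complex by 4.08. Ccnk and Cdk12, a cyclin and kinase pair that acts on the elongating polymerase, rose by 3.09 and 2.31. The NELF subunits, which hold the polymerase at its pause, were all lower, Nelfcd by -2.52, Nelfa by -1.83, Nelfe by -1.77 and Nelfb by -1.62. With the length offset Hexim1 had 5.05, Ccnk 3.75, Mllt6 3.29 and Cdk12 1.95, and the NELF subunits -1.71 to -0.78.

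The genes most like Mllt1 across the 32 libraries, each centred on the mean of its experiment, were Slc29a1 (r = 0.78), Acp6 (0.76), Rbpms (0.74), Glrx5 (0.74) and Lss (0.73), among 8032 genes with a mean of at least 10 CPM in each experiment. Libraries of an experiment share genotype groups, depth and kit, so these values are a description. Among the 45 pairs of the 10 genes, r ran from -0.66 (Ell2 with Aff3) to 0.61 (Ccnt1 with Aff4), with a median of -0.0061.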

How the data were processed

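RNA was measured in 32 libraries of mouse embryonic kidney, grouped by the labels. The authors aligned reads to mm10 with HISAT2, assigned them to Ensembl genes with HTSeq in its unstranded mode, and deposited raw counts in 4 tables. Reads of overlapping genes on either strand therefore cannot be told apart. Of 55806 identifiers, 55536 were given a name from GENCODE vM21; the release used by the authors is not given in the sources used here. The 10 genes and all lists were chosen with earlier results of these data known.

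Each comparison was fitted on all genes of its table with edgeR 4.0.16 in R 4.3.3 (TMM scaling, filterByExpr with a minimum count of 10 and a minimum total of 15, quasi-likelihood test, Benjamini-Hochberg adjustment); the 3 whole Six2 genotypes shared a fit. Calls needed a fold change over 1.5 with an adjusted p below 0.05 for genotype, over 2 with one below 0.01 for stage and lineage, and one below 0.05 at any fold for interactions. The genes named are the 10 and those of the lists past a threshold. Nothing in the labels says that replicates came from separate litters, so p-values measure the spread between these libraries. Alternatives were DESeq2 1.42.0, edgeR's exact test, other scalings, filters and fold thresholds, a replicate block, each library left out and, chosen after seeing the data, an offset for transcript length. The steps were tested on simulated data. Depth is given in the report; counting error is largest in sorted Foxd1 cells.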

Additional observations from a re-analysis of the deposited data

Results flagged for a closer look

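In sorted Foxd1 cells of ENL WT, Aff1 in replicate 1, at 58.0 CPM, stood apart from the other 3 libraries. Its gap to them was 0.836 of the range, above the 95% limit of Dixon's test for 4 libraries. It was the 1 flag among 20 pairs of gene and group tested, and chance flags about 1 in 20.

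Mllt3 differed from ENL WT by 0.23 on the log2 scale in whole Six2 kidneys of T1 (adjusted p = 0.133 by edgeR, not past the test) and by 0.32 in E14.5 Six2 cells, but by -0.38 in sorted Foxd1 cells, and in each the genotypes did not overlap. Ccnt1 differed by 0.052 in whole Six2 kidneys of T1 (adjusted p = 0.604 by edgeR) and by 0.078 in whole Foxd1 kidneys (adjusted p = 0.274), neither past the test, but by -0.20 in E18.5 Six2 cells, again without overlap. These values of unlike sign lie in experiments that differ in sample type, lineage or stage, and the differences between them were not tested. Whole Six2 kidneys had only 2 libraries per genotype, so lack of overlap says little there. The share of all genes without overlap was not counted.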

How the results depend on the processing

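With no fold threshold, members called were 1 in T1 and 2 in T3 of whole Six2 kidneys, 4 in E14.5 and 3 in E18.5 Six2 cells, 2 in Foxd1 cells and 3 in whole Foxd1 kidneys, and all genes called 3393, 4189, 2884, 4603, 1363 and 6732. With a fold change over 2 they were 0 at E14.5 and 0 in Foxd1 cells, and all genes 1120, 1344, 846, 1682, 347 and 1084. The comparison of T3 with T1 called 89 genes by the exact test, 71 by DESeq2 and 300 without the low-count filter. The length offset gave 4 members for stage in ENL WT, 3 in ENL T1, 2 in the stage interaction and 4 for lineage, and turned Mllt3 between stages in ENL T1 to -0.14. With it, called genes between stages in ENL T1 split into 7267 higher and 2717 lower in place of 6155 and 4996. The stage interaction called 1 member under DESeq2, RLE size factors, no filter and a filter at 1 CPM, and the lineage interaction 1 under DESeq2, RLE, library size alone and no filter. By library size alone, the calls of the stage interaction split into 1268 higher and 882 lower (995 and 1064 with TMM), and those of the lineage interaction into 935 and 1555 (1226 and 1135). Without the filter the stage interaction split into 878 and 1477.

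Leaving out each library in turn, all genes called were 1163 to 2092 (T1) and 1671 to 2508 (T3) in whole Six2 kidneys, 0 to 16 for T3 against T1, 1069 to 1515 at E14.5, 2305 to 2756 at E18.5, 638 to 769 in Foxd1 cells and 1637 to 2160 in whole Foxd1 kidneys. They were 10738 to 11523 and 10450 to 11273 between stages in ENL WT and T1, 1327 to 2176 for the stage interaction, 8094 to 8444 for lineage and 1976 to 2460 for its interaction. Members called ran from 0 to 2 in both interactions and from 7 to 8 for lineage.

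Replicate numbers did not pair the libraries (correlations of deviations -0.079 to 0.14). With a replicate block, the calls of Mllt1 (adjusted p = 0.0883) and Mllt3 (0.0699) at E14.5, Ccnt1 at E18.5 (0.0866) and Cdk9 in whole Foxd1 kidneys (0.0908) were lost and that of Aff3 in Foxd1 cells (0.0479) gained. Over the other settings, 877 of 980 pairs of gene and setting kept direction and side of the threshold. The causes were not tested. Depth limits Ell2 in Foxd1 cells most.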
